A study of Mus musculus with 8 samples.

Results

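The mRNAs of the DEAD and DEAH box RNA helicase family were followed through an immunoprecipitation of the RNA-binding protein DAZL. Members were all array probes for genes whose name in the array files begins with Ddx or Dhx and a digit, leaving out Ddx4 and any gene that its description places on the Y chromosome. This gave 48 genes (33 named Ddx and 15 named Dhx) with 85 probes, of 41174 gene probes on the array. All 48 genes had at least 1 probe that passed the filter on dim probes and were tested among 19032 genes. Of them, 47 were well above background on every array, and Ddx23 was not on 1 of the 2 GFP arrays. The file's Ddx39 and Ddx48 carry the current symbols Ddx39a and Eif4a3.

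The RNA came from primordial germ cells, the embryonic founders of eggs and sperm, made in culture. V6.5-derived mouse embryonic stem cells of mixed C57BL/6 129SV background, carrying a fusion named Dazl-GFP-V5, were freed of feeder cells and differentiated for 12 days. Lysates were not crosslinked with ultraviolet light, and TRIZOL was used to extract the RNA. The 4 groups, each with 2 arrays, were RNA from an anti-V5 immunoprecipitation (V5 IP), RNA from an anti-GFP immunoprecipitation (GFP IP), RNA from a mock immunoprecipitation with normal mouse IgG (mock IP) and total RNA with no antibody (input). All 4 groups came from cells with the tagged DAZL, so no group lacks the fusion protein, and both antibodies bind the same fusion. The design text gives 2 independent experiments without saying whether they began from separate cultures, and p-values cover only the spread between these arrays.

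DEAD and DEAH box proteins are named for the amino acids of a conserved motif in their helicase core. They use ATP to unwind RNA or to pry proteins off it, and they act at nearly every step of an mRNA's life: splicing, export, translation, storage and decay, and also in ribosome assembly. DAZL binds mRNAs of germ cells, mostly in the 3' untranslated region, and controls their translation and stability. The values below measure helicase mRNAs on the arrays, not helicase proteins.

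Relative to mock IP, Dazl's own mRNA was higher 6.19-fold with the V5 and 6.56-fold with the GFP antibody (limma adjusted p = 0.005 and 0.00394). All 9 primordial germ cell markers measured were well above background in both input arrays. So were 6 of 6 fibroblast, 4 of 4 neuroectoderm, 4 of 4 endoderm and 5 of 5 mesoderm and blood markers. On the input arrays 70.5% and 67.4% of all probes passed this mark, so these counts do not show how pure the cells were. The share of probes well above background lay between 61.3% (mock array 1) and 70.5% (input array 1), and mock array 1 was the dimmest, with a 75th percentile of 352 intensity units against 641 to 1130 on the other 7. Arrays numbered 1 lay on 1 slide and arrays numbered 2 on another, scanned apart.

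Signals are given as log2 of the processed intensity relative to the array's 75th percentile, so a fold change states a gene's place among the other RNA of its array, not an amount of RNA recovered. In such bulk samples, fewer cells of a type and less RNA per cell cannot be told apart. A gene was called at a Benjamini-Hochberg adjusted p under 0.05 over all genes. A gene's brightest kept probe stands for it, and levels of different genes are not compared.

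Against mock IP, some helicase mRNAs were called higher and more were called lower with both antibodies in the main fit. In V5 IP, 8 members were called higher (16.7%, where 14.6% of all genes were) and 13 lower (27.1%, where 21.4% of all genes were). In GFP IP, 9 were called higher (18.8%, background 16.3%) and 20 lower (41.7%, background 26.5%). The share called higher was thus near that of all genes with both antibodies, as was the share called lower in V5 IP. In GFP IP the share called lower was above that of all genes. Both statements hold for this fit, which leaves out the slide. With the slide as a block, 25 members were called lower in each IP. The 13 and 20 are therefore not read as a difference between the antibodies. The members' median log2 fold change was -0.61 for V5 IP and -0.65 for GFP IP, beside -0.44 for all genes in both. Both IPs share the mock arrays, so the comparisons are not independent of each other.

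The highest values belonged to Ddx3x, Ddx19b and Ddx21 with either antibody, and these 3 remained called without any single array. In V5 IP, leaving out V5 array 1 or mock array 1 left 3 higher and 0 lower calls, leaving out either input array left 6 and 2, and leaving out V5 array 2 left 8 and 8. In GFP IP, leaving out GFP array 1 left 4 and 0, leaving out mock array 1 left 5 and 6, GFP array 2 left 6 and 10, and either input array left 7 and 11. None of the lower calls against mock IP, with either antibody, was kept in all 8 such leave-outs. In the leave-outs counted above, calls over all genes also fell, higher and lower alike. The losses were thus not confined to the helicases. With normexp background correction, V5 IP kept 3 higher and 0 lower calls (10 genes of all 19032 were then called lower). GFP IP kept 4 and 2. Centring each array on its median gave V5 IP 8 higher and 4 lower calls and GFP IP 10 and 11, and moved the median of all genes to -0.29 for V5 IP. The centred share called lower was 8.33% of members in V5 IP, with 8.18% of all genes, and 22.9% in GFP IP, with 15.1% of all genes. With the slide as a block, both IPs had 10 higher and 25 lower calls. The whole array gained calls too. Of all 19032 genes, the block put 3693 higher and 7311 lower for the V5 antibody. For the GFP antibody these counts were 3970 and 7646. The block added Ddx6 and Dhx33 as higher in V5 IP, and as lower Ddx1, Ddx23, Ddx27, Ddx46, Ddx47, Ddx48, Dhx16, Dhx29, Dhx30, Dhx36, Dhx37 and Dhx57 (adjusted p between 0.0109 and 0.0472 for these 12). In GFP IP it added Ddx6 as higher and Dhx29, Dhx32, Dhx36, Dhx37 and Dhx57 as lower (adjusted p between 0.00765 and 0.0414 for these 5).

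**Figure D1:**
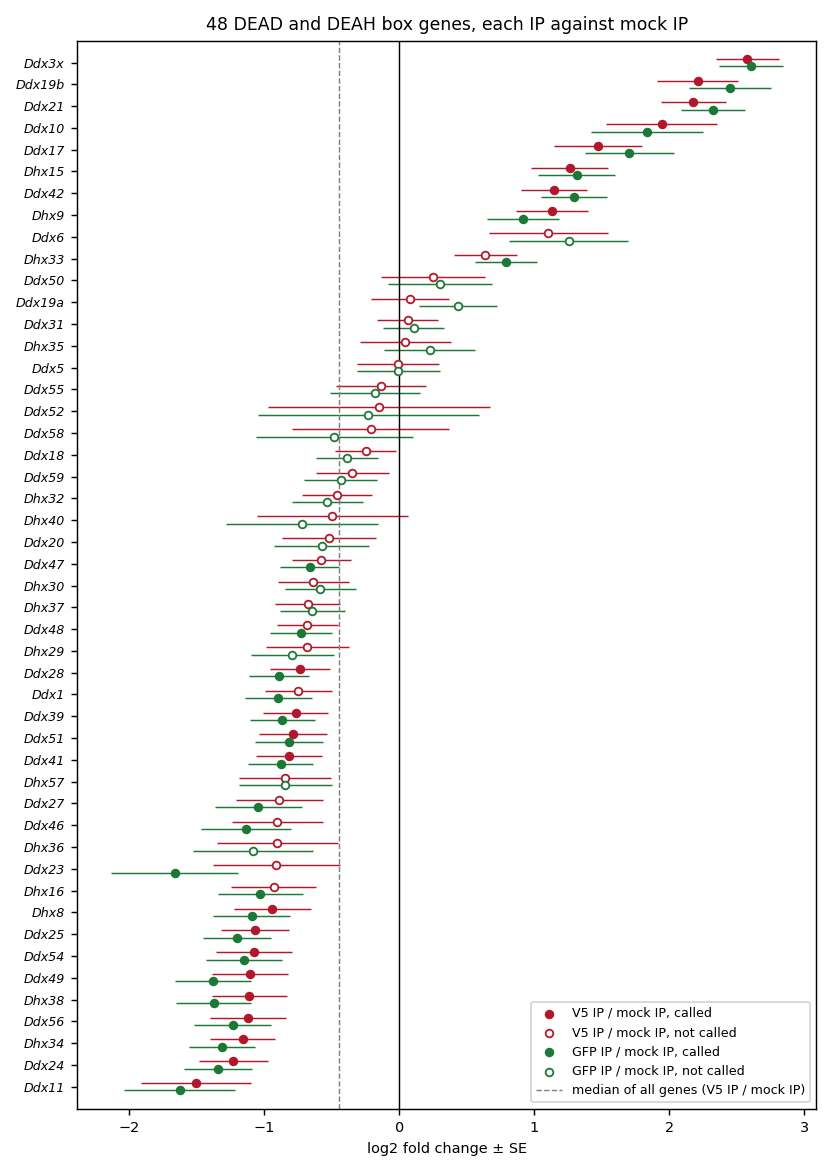
Log2 fold change of the 48 genes in V5 IP (red) and GFP IP (green) against mock IP, with the standard error of the fit as bars; filled points were called, open points were not, and the dashed line marks the median of all genes in V5 IP (-0.44). Ddx3x, Ddx19b and Ddx21 stand at the top with values above 2 for both antibodies, and 14 of 48 genes lie above 0 in V5 IP.

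The helicases of translation, storage, decay and export held the highest member. Ddx3x, which helps ribosomes start on mRNAs with structured leaders, had log2 signals of 5.21 and 4.94 on the V5 arrays, 5.15 and 5.07 on the GFP arrays, 2.36 and 2.64 on the mock arrays, and 3.32 and 3.20 on the input arrays. Every IP array lay above every mock and input array. Ddx3x was 5.97-fold higher in V5 IP (log2 2.58 ± 0.23 SE, limma adjusted p = 0.00212) and 6.09-fold higher in GFP IP (2.61 ± 0.23, adjusted p = 0.00182) than in mock IP. The difference was 2.85 on slide 1 and 2.30 on slide 2 for V5 IP, and 2.78 and 2.43 for GFP IP. Mouse Ddx3x has a close copy on the Y chromosome, and whether its probes also detect that copy was not tested.

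Ddx19b, which acts on mRNAs leaving through the nuclear pore, had log2 signals of 5.21 and 4.56 on the V5 arrays, 5.39 and 4.86 on the GFP arrays, 2.72 and 2.63 on the mock arrays, and 3.18 and 3.05 on the input arrays. The IP arrays again did not overlap with the others. Its mRNA was 4.62-fold higher in V5 IP (2.21 ± 0.30, adjusted p = 0.004) and 5.45-fold higher in GFP IP (2.45 ± 0.30, adjusted p = 0.00265) than in mock IP. Its close paralogue Ddx19a gave 0.08 ± 0.29 with V5 and 0.43 ± 0.29 with GFP and was not called in either. The Ddx19a arrays of each IP overlapped with those of mock IP. Probes for such near copies may share target RNA, which was not tested.

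Dhx9, a helicase of double-stranded RNA with roles in transcription and translation, had 5.13 and 4.58 on the V5 arrays, 4.79 and 4.50 on the GFP arrays, 3.65 and 3.80 on the mock arrays, and 3.82 and 3.93 on the input arrays. It was 2.19-fold higher in V5 IP (adjusted p = 0.0224) and 1.89-fold higher in GFP IP (adjusted p = 0.0289) than in mock IP. The V5 call was lost without V5 array 1, mock array 1 or either input array, and the highest adjusted p without 1 array was 0.118. The GFP call was lost without either GFP array, mock array 1 or either input array (highest adjusted p 0.155).

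Ddx6, the helicase of decapping and of mRNA storage granules, had -1.03 and -1.11 on the V5 arrays, -0.88 and -0.97 on the GFP arrays, -2.89 and -1.46 on the mock arrays, and -2.39 and -1.87 on the input arrays. All 4 IP arrays lay above all mock and input arrays, but the mock arrays were far apart. The log2 difference from mock IP was 1.10 ± 0.44 in V5 IP (adjusted p = 0.0835) and 1.25 ± 0.44 in GFP IP (adjusted p = 0.0534), neither of which passed. With the slide as a block, both were called (adjusted p = 0.0325 and 0.0188).

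Other members of the same role moved the opposite way. Dhx34, which takes part in nonsense-mediated decay, had 1.35 and 1.47 on the V5 arrays, 1.18 and 1.34 on the GFP arrays, 2.78 and 2.37 on the mock arrays, and 1.74 and 1.61 on the input arrays. It was 2.23-fold lower in V5 IP (-1.16 ± 0.24, adjusted p = 0.0172) and 2.49-fold lower in GFP IP (-1.31 ± 0.24, adjusted p = 0.00908) than in mock IP, and the mock arrays were the highest of the 8. The V5 call was lost without V5 array 1 or mock array 1 (highest adjusted p 0.0957) and the GFP call without GFP array 1 (0.0672). Ddx25, known in mouse testis for export and storage of spermatid mRNAs, fell by 1.07 in V5 IP and by 1.20 in GFP IP. Ddx39, an export helicase, fell by 0.77 and by 0.87 (adjusted p = 0.0432 and 0.0258), and Ddx1 fell by 0.89 in GFP IP (adjusted p = 0.0262). The calls of Ddx39 and Ddx1 against mock IP were all lost with normexp and with centring. Dhx36, which unwinds G-quadruplexes, gave -0.90 ± 0.45 with V5 and -1.08 ± 0.45 with GFP (adjusted p = 0.141 and 0.0842) and was called lower with the slide as a block (adjusted p = 0.0174 and 0.00765). The other kept probe of Dhx36 gave 0.46 ± 0.72 with V5 and 0.15 ± 0.72 with GFP, and the mean of both probes -0.22 and -0.47 (adjusted p = 0.776 and 0.537). Of the 11 genes of this role, V5 IP had 3 higher and 3 lower calls, and GFP IP had 3 and 4.

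**Figure D2:**
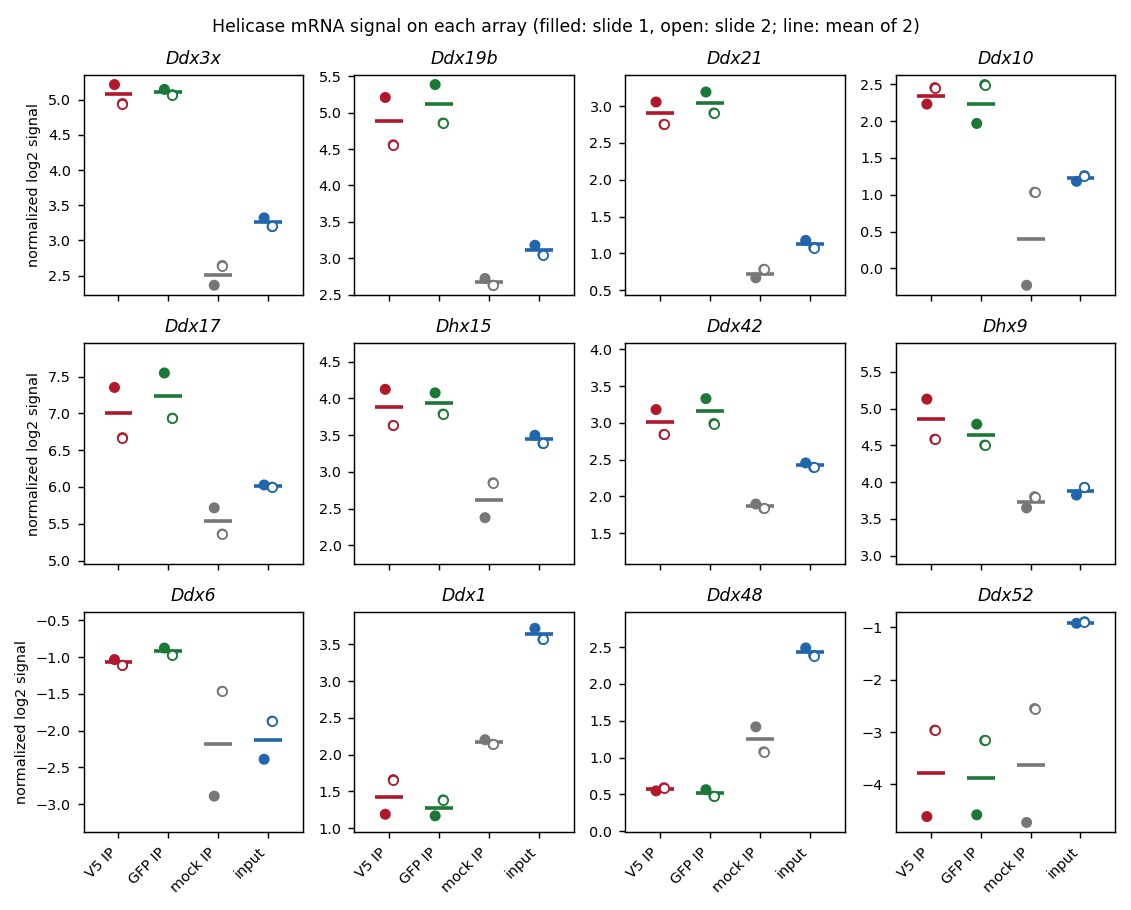
Normalized log2 signal of 12 genes on each array, by group; filled points are slide 1, open points slide 2, and lines are means of 2 arrays, with a vertical scale of its own for each gene. Ddx3x, Ddx19b and Ddx21 lie higher on every IP array than on any mock or input array, whereas Ddx1 and Ddx48 lie lowest in the IPs, between in mock IP and highest in input.

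The 16 helicases of ribosome biogenesis had 2 higher and 5 lower calls for V5 IP against mock IP, and 3 and 7 for GFP IP. Ddx21, a nucleolar helicase of rRNA transcription and processing, had 3.06 and 2.75 on the V5 arrays, 3.19 and 2.91 on the GFP arrays, 0.67 and 0.78 on the mock arrays, and 1.18 and 1.08 on the input arrays. It was 4.53-fold higher in V5 IP (2.18 ± 0.24, adjusted p = 0.00227) and 5.01-fold higher in GFP IP (2.32 ± 0.24, adjusted p = 0.00186), with no overlap of arrays. This value is that of its brightest probe, and the other 2 probes were not called against mock IP.

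Ddx10, another nucleolar helicase, had 2.23 and 2.46 on the V5 arrays, 1.97 and 2.50 on the GFP arrays, -0.23 and 1.03 on the mock arrays, and 1.18 and 1.26 on the input arrays. It was 3.84-fold higher in V5 IP (1.94 ± 0.41, adjusted p = 0.0181) and 3.56-fold higher in GFP IP (1.83 ± 0.41, adjusted p = 0.0146). Mock array 1 was the lowest of the 8, and the difference was 2.46 on slide 1 and 1.42 on slide 2 for V5 IP. Without mock array 1 or V5 array 1 the V5 call was lost (highest adjusted p 0.066), and without mock array 1 or GFP array 2 the GFP call was lost (0.052). Dhx33, which promotes rRNA transcription, was called in GFP IP (0.79 ± 0.23, adjusted p = 0.0303) and gave 0.64 ± 0.23 in V5 IP (adjusted p = 0.065, and 0.0333 with the slide as a block). Its second kept probe gave -0.35 with V5 and -0.42 with GFP, neither called. The GFP call was lost when its kept probes were averaged (0.18, adjusted p = 0.523), and without either GFP array, mock array 1 or either input array (highest adjusted p 0.171). The 2 IPs differed for Dhx33 by less than its SE.

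Ddx24 had 0.18 and 0.39 on the V5 arrays, 0.05 and 0.29 on the GFP arrays, 1.52 and 1.50 on the mock arrays, and 0.87 and 1.32 on the input arrays. It fell by 1.23 ± 0.25 in V5 IP (adjusted p = 0.0166) and by 1.34 ± 0.25 in GFP IP (adjusted p = 0.00962). The V5 call was lost without V5 array 1 or mock array 1 (highest adjusted p 0.0968), and the GFP call without GFP array 1 (0.0697). Ddx49 had -0.09 and -0.44 on the V5 arrays, -0.44 and -0.65 on the GFP arrays, 1.14 and 0.53 on the mock arrays, and 1.07 and 1.06 on the input arrays, all IP arrays lying below the rest. It fell by 1.10 ± 0.28 with V5 (adjusted p = 0.026) and by 1.38 ± 0.28 with GFP (adjusted p = 0.0117). Ddx54, like it a nucleolar helicase, fell by 1.07 and by 1.15, and Ddx51 by 0.79 and by 0.82. Ddx56, which acts in assembly of the large ribosomal subunit, had 1.49 and 1.56 on the V5 arrays, 1.41 and 1.42 on the GFP arrays, 3.02 and 2.27 on the mock arrays, and 2.64 and 2.70 on the input arrays. It fell by 1.12 ± 0.28 with V5 (adjusted p = 0.0258) and by 1.23 ± 0.28 with GFP (adjusted p = 0.0154), but its second probe gave 0.43 with each antibody. GFP IP also had lower calls for Ddx27 (-1.05) and Ddx47 (-0.66). With centring, the V5 calls of Ddx49, Ddx51, Ddx54 and Ddx56 and the GFP calls of Ddx27, Ddx47 and Ddx51 were lost. The second kept probe of Ddx27 lay on the other side of 0 (0.85 with V5 and 0.92 with GFP, neither called), and the mean of both probes gave -0.06 in GFP IP (adjusted p = 0.83). The calls for Ddx51 in V5 IP and Ddx47 in GFP IP were lost without any 1 of the 8 arrays, with a highest adjusted p of 0.214 and 0.227.

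The 11 splicing helicases divided as well, with 3 higher and 3 lower calls for V5 IP against mock IP and 3 and 6 for GFP IP. Ddx17, a splicing and microRNA-processing helicase, had 7.35 and 6.67 on the V5 arrays, 7.55 and 6.93 on the GFP arrays, 5.72 and 5.36 on the mock arrays, and 6.03 and 6.00 on the input arrays. It was 2.78-fold higher in V5 IP (1.47 ± 0.33, adjusted p = 0.02) and 3.26-fold higher in GFP IP (1.70 ± 0.33, adjusted p = 0.0102), and all IP arrays lay above the rest. The V5 call was lost without V5 array 1 or mock array 1 (highest adjusted p 0.105) and the GFP call without GFP array 1 (0.068).

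Dhx15, which takes spent spliceosomes apart, had 4.12 and 3.63 on the V5 arrays, 4.07 and 3.79 on the GFP arrays, 2.38 and 2.85 on the mock arrays, and 3.50 and 3.39 on the input arrays. Its fold over mock IP was 2.40 with V5 (adjusted p = 0.0205) and 2.49 with GFP (adjusted p = 0.0133). The IP arrays lay only slightly above input, where no call was made. Ddx42, a partner of the branch-site factor SF3b, had 3.18 and 2.84 on the V5 arrays, 3.33 and 2.99 on the GFP arrays, 1.90 and 1.84 on the mock arrays, and 2.45 and 2.39 on the input arrays. Its fold over mock IP was 2.21 in V5 IP (adjusted p = 0.0181) and 2.45 in GFP IP (adjusted p = 0.0096). For V5 IP, the Dhx15 call was lost without V5 array 1, mock array 1 or either input array (highest adjusted p 0.109), and the Ddx42 call without V5 array 1 or mock array 1 (0.104). For GFP IP, Dhx15 was lost without GFP array 1 or mock array 1 (0.082) and Ddx42 without GFP array 1 (0.0734).

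Dhx38, the helicase of the second catalytic step of splicing, had 0.80 and 0.90 on the V5 arrays, 0.54 and 0.63 on the GFP arrays, 2.31 and 1.62 on the mock arrays, and 0.45 and 0.47 on the input arrays. It was 2.16-fold lower in V5 IP (-1.11 ± 0.28, adjusted p = 0.0247) and 2.59-fold lower in GFP IP (-1.38 ± 0.28, adjusted p = 0.0114) than in mock IP. The mock arrays stood apart from the other 6, and the IP arrays lay slightly above input, with no call. The V5 call was lost without either V5 array, mock array 1 or either input array (highest adjusted p 0.11), and the GFP call without GFP array 1 (0.0694). Dhx8, which releases spliced mRNA, fell by 0.94 in V5 IP and by 1.09 in GFP IP, and Ddx41 by 0.82 and by 0.88. With centring, the Dhx8 call in V5 IP and both Ddx41 calls were lost. Dhx16, Ddx46 and Ddx23, which act earlier in the spliceosome, were called lower in GFP IP (-1.03, -1.14 and -1.66). The Dhx16 and Ddx46 calls were lost with centring. Averaging the kept probes of Ddx46 also lost its call, and another of its probes was called higher (1.02). Ddx23 had -4.78 and -4.31 on the V5 arrays, -5.75 and -4.84 on the GFP arrays, -4.14 and -3.12 on the mock arrays, and -4.53 and -3.74 on the input arrays. Only 1 of the 2 GFP arrays measured it above background, and the call was lost without either mock array or GFP array 1 (highest adjusted p 0.133).

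Of the 7 genes with other roles, none was called higher against mock IP with either antibody, and the lower calls were Ddx11 in V5 IP and Ddx11 and Ddx48 in GFP IP. Ddx11, a DNA helicase of sister chromatid cohesion, had -4.04 and -3.33 on the V5 arrays, -3.94 and -3.68 on the GFP arrays, -1.61 and -2.75 on the mock arrays, and -2.73 and -2.88 on the input arrays. It was 2.84-fold lower in V5 IP (adjusted p = 0.0302) and 3.09-fold lower in GFP IP (-1.63 ± 0.41, adjusted p = 0.0194), with mock array 1 the highest of the 8. On slide 1 the V5 difference was -2.42 and on slide 2 -0.58, and without V5 array 1, mock array 1 or either input array the call was lost (highest adjusted p 0.136). The GFP call was lost without GFP array 1 or mock array 1 (0.0895). Ddx20, the Gemin3 subunit of the SMN complex that assembles spliceosomal snRNPs, gave -0.52 ± 0.35 with V5 and -0.58 ± 0.35 with GFP and was not called. The mitochondrial Ddx28 fell by 0.74 with V5 and by 0.89 with GFP, while the mitochondrial Dhx30 and the viral RNA sensor Ddx58 were not called. With centring, the Ddx11 and Ddx28 calls in V5 IP and the Ddx48 call in GFP IP were lost.

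Against input, the helicase mRNAs were mostly lower in the IPs. In V5 IP, 4 members were called higher (8.33%, where 14.1% of all genes were) and 19 lower (39.6%, where 13.7% of all genes were). In GFP IP, 5 were called higher (10.4%, background 16%) and 22 lower (45.8%, background 16.8%). The members' median was -0.81 for V5 IP and -0.95 for GFP IP, beside -0.11 for all genes in both. The share called lower was more than that of all genes in both IPs. With the slide as a block, V5 IP had 8 higher and 28 lower calls (3881 and 4603 of all 19032 genes) and GFP IP had 9 and 28 (4180 and 5099). The genes this added were, as higher, Ddx6, Ddx10 and Ddx42 in both IPs, Ddx17 in V5 IP and Dhx9 in GFP IP. As lower they were Ddx50, Ddx51, Ddx54, Ddx58 and Dhx57 in both IPs. Ddx46, Ddx55, Dhx16 and Dhx32 were added as lower in V5 IP, and Ddx23 in GFP IP. Block adjusted p lay between 0.0143 and 0.0416 for the 9 in V5 IP and between 0.00347 and 0.0329 for the 6 in GFP IP. In the leave-outs that follow, calls over all genes fell or rose together with those of the members. Without input array 1 the V5 calls were 2 higher and 3 lower and the GFP calls 3 and 4, and without input array 2 they were 2 and 4, and 3 and 7. Without V5 array 1 the V5 calls were 3 and 5, without GFP array 1 the GFP calls were 3 and 6, and without either mock array they were 8 and 25.

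Ddx3x was 3.53-fold higher in V5 IP (1.82 ± 0.23, adjusted p = 0.00285) and 3.60-fold higher in GFP IP (1.85 ± 0.23, adjusted p = 0.0024) than in input. Ddx21 was 3.43-fold and 3.79-fold higher (adjusted p = 0.00306 and 0.00225), and Ddx19b 3.41-fold and 4.03-fold higher (adjusted p = 0.00658 and 0.00364). Only the Ddx19b call in V5 IP was lost when 1 array was left out, either input array (highest adjusted p 0.0577). The Ddx21 calls were lost when all its kept probes were averaged (log2 0.42 and 0.31). Dhx9 was called in V5 IP (0.98 ± 0.27, adjusted p = 0.0314) and gave 0.77 ± 0.27 in GFP IP (adjusted p = 0.0607, and 0.0292 with the slide as a block). Ddx17 was called in GFP IP (1.23 ± 0.33, adjusted p = 0.0258) and differed by 1.32 on slide 1 and 0.67 on slide 2 in V5 IP (adjusted p = 0.0574, and 0.00972 with the block). Ddx6 gave 1.06 ± 0.44 and 1.21 ± 0.44 and was not called (adjusted p = 0.115 and 0.0724). It was called with the block (adjusted p = 0.0464 and 0.0264), when only the groups compared were fitted (0.0394 and 0.0191) and without either mock array (0.0238 and 0.0146), and in GFP IP with the authors' deposited table (0.0407). The Dhx9 call was lost without V5 array 1 or either input array (highest adjusted p 0.2), and the Ddx17 call without GFP array 1 or either input array (0.163).

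The lowest value against input was that of Ddx52, a relative of a yeast helicase of small-subunit assembly. It had -4.61 and -2.96 on the V5 arrays, -4.58 and -3.16 on the GFP arrays, -4.73 and -2.55 on the mock arrays, and -0.92 and -0.89 on the input arrays. All IP and mock arrays lay below both input arrays, and the arrays of slide 1 were lower than those of slide 2. Ddx52 was 7.38-fold lower in V5 IP (-2.88 ± 0.82, adjusted p = 0.0363) and 7.80-fold lower in GFP IP (-2.96 ± 0.82, adjusted p = 0.0289), and each call was lost without either input array or the IP's own array 1 (highest adjusted p 0.173 and 0.134).

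Ddx1, a subunit of the tRNA ligase complex, had 1.19 and 1.66 on the V5 arrays, 1.17 and 1.38 on the GFP arrays, 2.20 and 2.14 on the mock arrays, and 3.72 and 3.56 on the input arrays. It was 4.65-fold lower in V5 IP (-2.22 ± 0.25, adjusted p = 0.00227) and 5.15-fold lower in GFP IP (-2.36 ± 0.25, adjusted p = 0.0018) than in input. Ddx48, the eIF4A-like anchor of the exon junction complex, had 0.55 and 0.59 on the V5 arrays, 0.56 and 0.47 on the GFP arrays, 1.42 and 1.08 on the mock arrays, and 2.49 and 2.39 on the input arrays. It was 3.66-fold lower in V5 IP (adjusted p = 0.00253) and 3.78-fold lower in GFP IP (adjusted p = 0.00212). Ddx1, Ddx48 and Ddx47 remained lower in both IPs without any single array, as did Ddx18 in GFP IP, where its highest adjusted p without 1 array was 0.0358 against 0.051 in V5 IP without input array 1.

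Dhx40 had -0.40 and 0.72 on the V5 arrays, -0.62 and 0.49 on the GFP arrays, 0.02 and 1.29 on the mock arrays, and 1.99 and 1.94 on the input arrays, so that the IP and mock arrays overlapped and lay below input. It was 3.50-fold lower in V5 IP (adjusted p = 0.0484) and 4.09-fold lower in GFP IP (adjusted p = 0.029), and lost each call without either input array or the IP's array 1 (highest adjusted p 0.23 and 0.148). Ddx20 was 3.15-fold lower in V5 IP (-1.66 ± 0.35, adjusted p = 0.0134) and 3.27-fold lower in GFP IP (-1.71 ± 0.35, adjusted p = 0.0101). Its signals were 0.09 and 0.95 on the V5 arrays, 0.20 and 0.73 on the GFP arrays, 0.84 and 1.24 on the mock arrays, and 2.16 and 2.19 on the input arrays. The mock mean of Ddx20 also lay below input (-1.13). The Ddx20 calls were lost without either input array or the IP's array 1 (highest adjusted p 0.0839 and 0.0657). Dhx36 gave -0.29 ± 0.45 with V5 and -0.47 ± 0.45 with GFP and was not called against input.

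**Figure D3:**
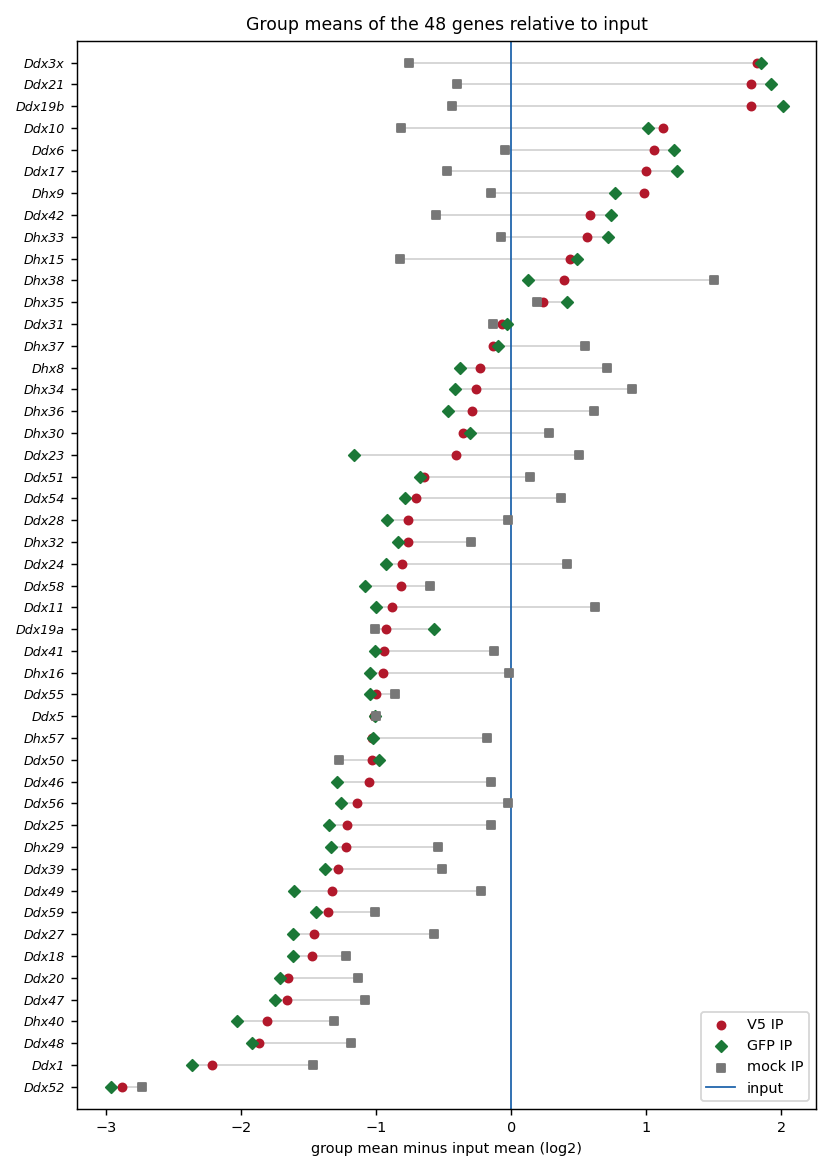
Mean log2 signal of V5 IP (red circles), GFP IP (green diamonds) and mock IP (grey squares) minus the input mean for the 48 genes, ordered by V5 IP. In the genes at the bottom, from Ddx52 to Ddx20, the mock mean is also more than 1 below input, whereas the mock mean of Dhx38 lies 2.83-fold above input.

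Mock IP itself differed from input for fewer members. There, 1 member was called higher (2.08%, background 6.64%) and 4 lower (8.33%, background 4.03%), and the members' median was -0.26, while that of all genes was 0.20. Dhx38 was 2.83-fold higher in mock IP than in input (SE 0.28 on the log2 scale, adjusted p = 0.0271). Lower than in input were Ddx1 (-1.47), Ddx18 (-1.23), Ddx48 (-1.19) and Ddx47 (-1.08; adjusted p = 0.0252, 0.0277, 0.0284 and 0.0313). These 4 mRNAs were thus lower than input with the IgG control as well as with the tag antibodies. Set against mock IP, Ddx1, Ddx48 and Ddx47 were called lower with the GFP antibody too, with changes of -0.89, -0.73 and -0.66. No call of mock IP against input was kept without input array 1, input array 2 or mock array 1 (highest adjusted p 0.212), and leaving out mock array 2 gave 2 higher and 11 lower. Almost none of all genes were called in the leave-outs without an input array or mock array 1. With the slide as a block, 3 members were called higher and 14 lower, beside 4069 and 2537 of all 19032 genes. Dhx8 and Dhx34 were added as higher. Added as lower were Ddx3x, Ddx5, Ddx19a, Ddx20, Ddx50, Ddx52, Ddx55, Ddx59, Dhx15 and Dhx40 (adjusted p between 0.00623 and 0.043 for both lists).

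The antibodies against the 2 tags gave no call between them: limma called 0 of 48 members and 0 of 19032 genes in V5 IP against GFP IP, and 0 members had an unadjusted p under 0.05 (187 genes did). The smallest unadjusted p of the members was 0.151, for Ddx23 (0.75 ± 0.47, higher in V5 IP). The member with the smallest p in the other direction was Ddx19a (-0.36 ± 0.29). The members' differences lay between -0.36 and 0.75 with a median of 0.08.

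Different probes of the same gene did not always move together. Among the 26 members with several kept probes, 8 had log2 fold changes on both sides of 0 when V5 IP was set against mock IP (30.8%, against 26.9% of all 6546 genes with several kept probes). For GFP IP this held for 9 (34.6%, against 28.5%). The 3 probes of Ddx3x were all higher, by 2.58, 2.06 and 2.08 in V5 IP and by 2.61, 2.09 and 2.73 in GFP IP (each called when every probe was tested on its own). Ddx19b's second probe gave 0.95 with V5 and 1.17 with GFP, smaller than the first probe and called in both. Dhx15's 2 probes gave 1.26 and 1.29 with V5 and 1.31 and 1.32 with GFP. Against input, the 2 dimmer Ddx3x probes gave 0.77 and 0.25 with V5 and 0.80 and 0.90 with GFP and were not called. Tested singly, only the brightest Ddx3x probe was thus called over input. The gene's call over input was kept when its kept probes were averaged. Its lowest log2 fold change over the alternative fits of all arrays or of the groups compared was 0.95 with V5 and 1.18 with GFP.

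The second Ddx10 probe was also higher than mock IP (0.98 with V5 and 1.01 with GFP, adjusted p = 0.0289 and 0.0212) but lower than input (-0.83 and -0.81, adjusted p = 0.0474 and 0.0461). Ddx17's second probe gave 0.74 and 0.80 against mock IP and Ddx42's gave 0.02 and -0.31, none of them called. Ddx21 was less uniform: its brightest probe gave 2.18 in V5 IP, the second 0.89 ± 0.36 and the third -0.38 ± 0.24 (adjusted p = 0.0928 and 0.241). Against input, the third probe of Ddx21 was called lower in V5 IP (-1.10) and in GFP IP (-1.19), opposite to the first. Ddx5, a splicing and microRNA-processing helicase closely related to Ddx17, was split as well. Its brightest probe had 3.36 and 3.86 on the V5 arrays, 3.47 and 3.77 on the GFP arrays, 3.30 and 3.94 on the mock arrays, and 4.59 and 4.66 on the input arrays. It gave -0.01 ± 0.31 against mock IP with either antibody (not called) and -1.01 ± 0.31 against input (called lower, adjusted p = 0.044 and 0.0395). The second Ddx5 probe was higher than mock IP by 1.80 with V5 and by 1.74 with GFP (adjusted p = 0.0049 and 0.00484), and higher than input by 1.46 and 1.41. No single direction is therefore given for Ddx5. Ddx46 had 3 probes below 0 and 1 above it in both IPs against mock IP, and the single probe above 0 gave 0.93 and 1.02 (adjusted p = 0.0281 and 0.0174). In GFP IP the brightest Ddx46 probe was called lower (-1.14, adjusted p = 0.0342), so its probes were called in opposite directions. They were also called both ways against input in both IPs.

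**Figure D4:**
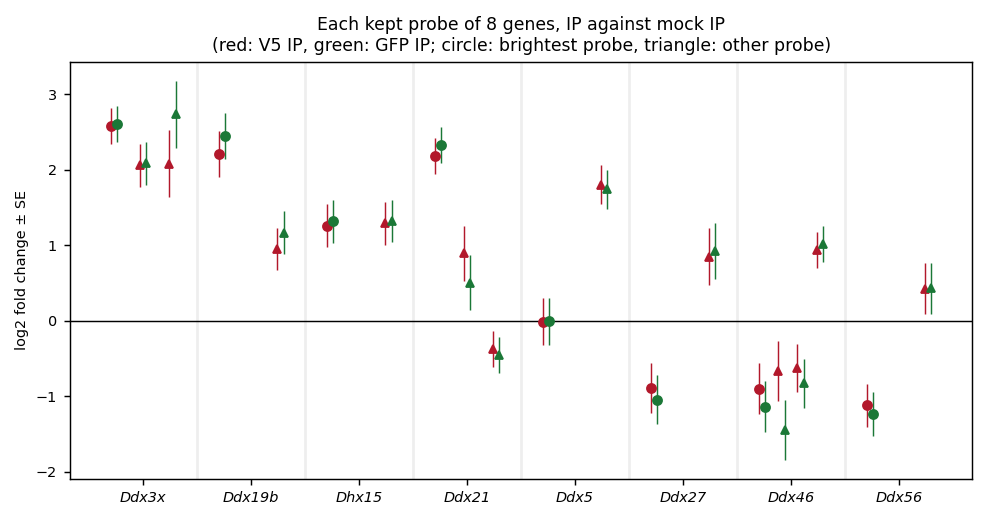
Log2 fold change against mock IP of each kept probe of 8 genes, chosen after the values were seen to show agreeing and opposed probes, in V5 IP (red) and GFP IP (green), with the standard error as bars; circles are the brightest probe and triangles the others. The 3 Ddx3x probes lie together near 2 to 3, whereas the 2 Ddx5 probes lie at -0.01 and 1.80 in V5 IP.

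Set side by side, the roles did not move as blocks. Against mock IP, the median log2 fold change in V5 IP was -0.41 for ribosome biogenesis, -0.82 for splicing and -0.68 for translation, storage, decay and export, beside -0.44 for all genes. In GFP IP it was -0.52, -0.88 and -0.79. Each of these 3 roles held members called in both directions. Against input in V5 IP, ribosome biogenesis had 1 higher and 7 lower calls (median -0.91), splicing 0 and 2 (median -0.23), and translation, storage, decay and export 3 and 5 (median -0.29). The 7 genes of other roles had 0 higher and 4 lower calls there (median -1.36). Of all genes, 14.1% were called higher and 13.7% lower in that comparison, with a median of -0.11. By name, the 33 Ddx genes had 6 higher and 10 lower calls for V5 IP against mock IP, and the 15 Dhx genes had 2 and 3. Of all genes, 14.6% were called higher and 21.4% lower there.

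**Figure D5:**
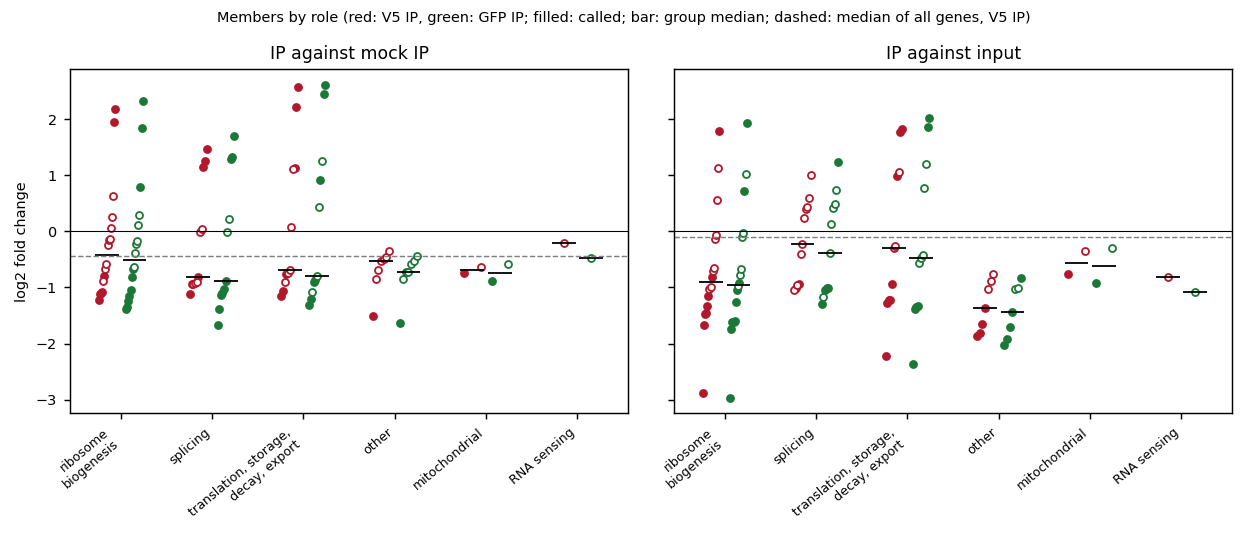
Log2 fold change of each member against mock IP (left) and against input (right), by role, in V5 IP (red) and GFP IP (green); filled points were called, short bars are medians of the role, and the dashed line is the median of all genes in V5 IP. Ribosome biogenesis, splicing and translation-related members spread to both sides of 0 against mock IP, and the other members lie below 0 in both panels.

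Genes that work with these helicases were counted in the same fit, in which V5 IP against mock IP called 14.6% of all genes higher and 21.4% lower. Of 9 genes of the helicase eIF4A and its partners in translation initiation, 3 were called higher and 2 lower with each antibody. The cap-binding protein Eif4e had 4.50 and 3.82 on the V5 arrays, 4.47 and 4.16 on the GFP arrays, and 1.05 and 1.53 on the mock arrays, and was 7.34-fold and 8.16-fold higher (adjusted p = 0.00221 and 0.00186). The eIF4A cofactor Eif4b fell by 0.87 in V5 IP (adjusted p = 0.0286) and by 0.86 in GFP IP (adjusted p = 0.0232). Of 15 decapping and storage partners of Ddx6, 6 were called higher and 1 lower with each antibody, with a median of 0.42. G3bp2, a stress granule protein, was higher 4.04-fold with the V5 and 4.31-fold with the GFP antibody (adjusted p = 0.00272 and 0.00205), and Atxn2l gave -0.82 and -0.76, both called lower.

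Of 12 genes of the exon junction complex and nonsense-mediated decay, the V5 antibody gave 3 higher and 1 lower calls and the GFP antibody 4 and 2, with medians of 0.53 and 0.66. Upf3b, which links both processes, had 1.47 and 1.70 on the V5 arrays, 1.47 and 1.84 on the GFP arrays, and -2.11 and -0.72 on the mock arrays. It was called higher with both antibodies (8.41-fold in GFP IP; adjusted p = 0.00469 and 0.00386), calls that were lost when all its kept probes were averaged. Smg5 fell by 1.04 with each antibody. Of 13 mRNA export partners, the V5 antibody gave 2 higher and 1 lower calls and the GFP antibody 3 and 2. Sarnp, a partner of the TREX export complex, was 5.08-fold higher with each antibody (adjusted p = 0.0114 and 0.00907), and the TREX subunit Thoc5 gave -0.98 and -1.13, both called lower.

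Of 8 SMN complex partners of Ddx20, V5 IP had 0 higher and 2 lower calls, and GFP IP had 1 and 3. Gemin2 gave 0.83 ± 0.30 in V5 IP (adjusted p = 0.06) and was called in GFP IP (0.99 ± 0.30, adjusted p = 0.0313), while Gemin5 was called lower in V5 IP (-1.10) and Gemin7 in GFP IP (-1.21). Of 15 RNA helicases outside the Ddx and Dhx names, 1 was called higher and 3 lower with each antibody. Ythdc2, a helicase of meiotic germ cells, rose 2.28-fold with the V5 antibody and 2.12-fold with the GFP antibody (adjusted p = 0.0291 and 0.0305), and Skiv2l, the helicase of the cytoplasmic exosome's cofactor, gave -1.14 and -1.36, both called lower. The calls for Eif4e and G3bp2 were kept in every alternative run, and the others named from these lists were lost in at least 1. Several were lost in many. The Eif4b and Atxn2l calls were lost with normexp, centring, no filter on dim probes and the authors' deposited table, among others. The Ythdc2 calls and the Gemin2 call in GFP IP were lost with normexp, no filter on dim probes and the mean of kept probes, among others.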

How the data were processed

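Agilent Feature Extraction 9.1.3.1 produced the deposited array files, whose values are spot intensities on a linear scale, per the file headers. Background subtraction of the processed intensity was done by that software, per the file headers. The authors' deposited table of the whole series holds signals normalized to the median, per the file headers, and a quality score that served only to match 44985 of its 45018 entries to single spots (tolerance 1e-05). No genome build was needed.

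The processed intensity was put on the log2 scale and each array's 75th percentile subtracted. A probe was kept if both arrays of some group had it well above background (28104 of 41174 probes), and the brightest kept probe stood for its gene (19032 genes). Comparisons used limma 3.58.1 (R 4.3.3) over all 8 arrays (4 residual degrees of freedom, two-sided), with Benjamini-Hochberg adjustment over all genes. Tables were made with Python 3.11.15 and pandas 2.3.3. The fit was also run on simulated data that had no slide effect, so that run cannot show how the fit behaves where arrays of a slide deviate together. The number of arrays limits the precision.

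Members, roles and lists were chosen with earlier results of these data known. Named were Ddx3x, Ddx5, Ddx6, Ddx17, Ddx20, Ddx21, Dhx9 and Dhx36 always, the 8 highest and 6 lowest calls of each IP against mock IP whose arrays did not overlap, the 4 highest and 4 lowest calls of other comparisons, the member with the smallest p where a direction had no call, and the largest and smallest moderated t of each partner list. Other members have short values. Replicate numbers mark the slide, per the file headers, and same-numbered arrays deviated together (r between 0.299 and 0.777 in all 6 pairs of groups), so values with the slide as a block are given where they change a member's call. Alternatives were normexp (offset 50), quantile normalization, median centring, no dim filter, the mean of kept probes, every kept probe, the deposited table as log2 of the signal plus 0.1, only the groups compared, the block, each slide alone and leaving out each array.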

Additional observations from a re-analysis of the deposited data

How the results depend on the processing

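V5 IP against GFP IP gave 0 member calls in every setting run. Counts below are higher then lower member calls, first in V5 IP and GFP IP against mock IP, then in V5 IP and GFP IP against input, then in mock IP against input. The main counts were 8 and 13, 9 and 20, 4 and 19, 5 and 22, and 1 and 4. Of all 19032 genes, 2776 and 4067, 3102 and 5044, 2687 and 2599, 3047 and 3203, and 1263 and 767 were called. Normexp gave 3 and 0, 4 and 2, 3 and 5, 3 and 6, and 0 and 0. Its calls over all genes were 948 and 10, 1173 and 450, 1185 and 331, 1250 and 475, and 8 and 0. No dim filter gave 8 and 3, 7 and 10, 3 and 12, 3 and 15, and 0 and 0. Among its 27677 genes, 1945 and 974, 2539 and 3155, 2129 and 1695, 2480 and 2307, and 71 and 69 were called. Median centring gave 8 and 4, 10 and 11, 4 and 14, 6 and 18, and 1 and 5. It called 2833 and 1557, 3351 and 2870, 2767 and 2167, 3200 and 2637, and 806 and 840 genes. The authors' deposited table gave 9 and 7, 10 and 11, 5 and 14, 8 and 18, and 1 and 5. With it, 3053 and 1506, 3517 and 2789, 3063 and 2008, 3514 and 2498, and 1086 and 946 genes were called. Only the groups compared, with fewer arrays, gave 5 and 1, 7 and 11, 6 and 18, 9 and 26, and 0 and 0. Genes called there were 2039 and 385, 2737 and 2921, 2724 and 2722, 3440 and 3995, and 23 and 20. The replicate block gave 10 and 25, 10 and 25, 8 and 28, 9 and 28, and 3 and 14. For all genes the block gave 3693 and 7311, 3970 and 7646, 3881 and 4603, 4180 and 5099, and 4069 and 2537. Quantile normalization gave 7 lower calls in mock IP against input. The mean of kept probes gave 2 higher calls both for GFP IP and for mock IP against input. Of the 80 kept probes, 15 and 16 were higher against mock IP, and 3 were higher and 8 lower in mock IP against input. Leaving out 1 array gave 3 to 9 higher and 0 to 15 lower, 4 to 10 and 0 to 19, 2 to 6 and 3 to 23, 3 to 8 and 4 to 25, and 0 to 2 and 0 to 11. Of 105 member calls, normexp kept 26, quantile normalization 102, the block 105 and the mean of kept probes 84. Each slide alone gave values with no test.

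The sign turned for Ddx5 in V5 IP against mock IP with normexp (0.016), centring (0.14), the mean of its probes (0.90), the deposited table (0.16), without V5 array 1 (0.24), without mock array 2 (0.31) and on slide 1 (0.062). Without 1 array it lay between -0.33 and 0.31. In GFP IP against mock IP it turned with centring (0.17), the mean of its probes (0.87), the deposited table (0.18), without GFP array 1 (0.14), without mock array 2 (0.31) and on slide 1 (0.16). Without 1 array it lay between -0.33 and 0.31. Against input, the mean of its probes gave 0.23 in V5 IP and 0.20 in GFP IP, where its 2 probes have opposite signs. Dhx36 in V5 IP against input was 0.16 without V5 array 1 (-0.74 without V5 array 2) and 0.089 on slide 2. Dhx33 in GFP IP against input was -0.047 with the mean of its probes, and Ddx23 in V5 IP against GFP IP was -0.49 with normexp. The cause was not tested for the others.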
